A study of Danio rerio with 4 samples.

Results

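The genes described here encode enzymes of heme biosynthesis in zebrafish: alas1, alas2, alad, uros, urod, cpox, ppox and fech. They were chosen by name as genes of the pathway, at a time when earlier results of these data were known, and are 8 of the 28357 genes listed in the files. All 8 were listed in each of the 4 libraries. The libraries were BD Rhapsody single-cell libraries of whole kidney from AB strain zebrafish, taken at day 4 after an intraperitoneal injection of the nephrotoxic antibiotic gentamicin (20 µl per fish of a solution at 2.7 µg/µl). Every library came from injected fish, so there was no uninjured group, and the comparisons below are between cell classes within the same libraries. Kidneys of several fish were digested, and nothing says how fish were divided among libraries, so the p-values measure only the spread between libraries, which may be technical.

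Heme is built in a chain of steps that starts and ends in mitochondria. Aminolevulinate synthase joins glycine and succinyl-CoA, cytosolic enzymes, among them Alad, Uros and Urod, assemble and trim the tetrapyrrole ring, and Cpox, Ppox and Fech complete protoporphyrin and insert iron back in mitochondria. Vertebrates carry a synthase gene used in most tissues, alas1, and another used by red cell precursors, alas2. The kidney of adult zebrafish is also the site of blood formation, so its marrow holds nucleated red cells and their precursors beside myeloid cells, lymphocytes and the nephron. Zebrafish mutants named for wines or for light-sensitive blood cells map to this pathway, among them sauternes (alas2), yquem (urod), montalcino (ppox) and dracula (fech).

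The files held 31008 cells, between 5821 and 9831 in a library, with median unique molecular identifiers (UMIs, each a counted transcript molecule) of 4358 to 4643.5 per cell in libraries 1 and 2 and of 9883 to 9953.5 in libraries 3 and 4. Between 47399 and 72608 UMIs per library belonged to the 8 enzyme genes. Cells were clustered with the pathway's genes and their partners left out, and clusters were named from marker genes. The erythroid class rested on globin genes and slc4a1a, the red cell anion exchanger, and split into 1097 proliferating cells, cluster 10, and 1457 non-proliferating cells. A set of 5 other erythroid genes that were not used for naming took 7439 to 8998 of every 1000000 UMIs in the proliferating cells, 13858 to 17146 in the non-proliferating cells and 48.2 to 79.0 in the progenitors. The non-proliferating class was cluster 13 alone in libraries 1 and 2, with 393 and 472 cells, and mostly cluster 18 in libraries 3 and 4, with 300 and 239 cells against 29 and 24 of cluster 13, so within this class the library pair and the cluster cannot be told apart. A pair of clusters with globin UMIs stayed unnamed and is described by number. Cluster 11, 1065 cells, was led by hdac7b, blf, pabpc4, mycb, pmp22b and znfl2a with a median globin share of 0.186% of a cell's UMIs, and cluster 1, 3290 shallow cells with a median of 706 UMIs and a globin share of 15.4%, came with 1607 and 1634 cells from libraries 1 and 2 and 25 and 24 from libraries 3 and 4. Cluster 1 scored best as erythroid, at 1.49, and stayed unnamed because another marker list was ahead among its top 10 genes. The 5 erythroid genes not used for naming took 3119 to 7697 of every 1000000 UMIs there. Libraries 1 and 2 shared 108 cell labels and libraries 3 and 4 shared 46, against 1 to 7 for the other pairs. Levels are counts per 1000000 (CPM), the UMIs of a gene in a class and library over all UMIs of that class and library, as mean ± SD over n = 4 libraries unless another n is given.

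The first step of the pathway was read from both synthase genes. In proliferating erythroid cells, alas2, the erythroid synthase, was at 2135, 2253, 1991 and 2068 CPM in libraries 1 to 4, and in non-proliferating erythroid cells at 6566, 6393, 4666 and 4408. In progenitors it was at 33.1, 25.1, 11.9 and 11.8, and at 11.9, 19.2, 6.36 and 3.97 with the top 6% of doublet scores removed. The 3 classes did not overlap in any library, and the non-proliferating cells of libraries 1 and 2 stood above those of libraries 3 and 4. By CPM, the housekeeping synthase alas1 was highest in the progenitors among these classes of each library. It was at 63.4, 62.3, 35.1 and 32.8 CPM in progenitors, at 51.0, 45.7, 14.1 and 11.8 in proliferating erythroid cells and at 48.8, 49.9, 8.17 and 7.85 in non-proliferating erythroid cells. These groups overlapped across libraries, because libraries 1 and 2 were above libraries 3 and 4 in each class, while within each library both erythroid classes were below the progenitors.

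Of all alas1 and alas2 UMIs, alas1 made 65.7%, 71.3%, 74.6% and 73.5% in progenitors of libraries 1 to 4. It made 2.33%, 1.99%, 0.705% and 0.567% in proliferating and 0.737%, 0.775%, 0.175% and 0.178% in non-proliferating erythroid cells. Neutrophils (85.3% to 90.3%), macrophages (71.6% to 84.8%), the proximal tubule (76.5% to 97.2%) and the distal tubule (83.6% to 94.9%) lay at the other end. Natural killer cells were at 61.9% to 85.1%. Other classes lay lower and varied between libraries, with 37.3% to 53.8% in B cells, 31.2% to 55.6% in mucin-secreting cells, 10.9% to 51.9% in thrombocytes and 0% to 59.3% in interstitial cells. Cluster 11 lay between these groups at 16.1%, 17.0%, 8.12% and 6.66%, where it overlapped thrombocytes and interstitial cells. In cluster 11 and in both erythroid classes, alas1 took a larger share in libraries 1 and 2 than in libraries 3 and 4. Outside the erythroid classes the shares depend on low alas2 counts that moved with globin, as described next. They were not recomputed without the top doublet scores, which lowered alas2 in progenitors.

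**Figure D1:**
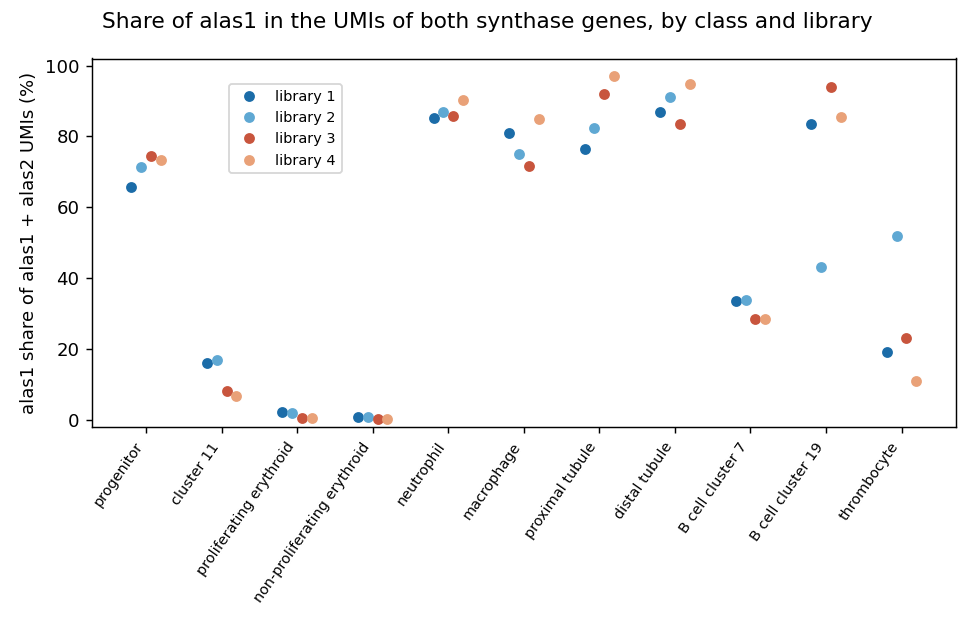
Share of alas1 among alas1 plus alas2 UMIs, in percent, by cell class; each point is 1 of the 4 libraries. The alas1 share is at most 2.33% in both erythroid classes and at least 65.7% in progenitors, neutrophils, macrophages and tubule cells, with cluster 11 between them.

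The low alas2 levels outside the erythroid classes moved with globin UMIs. In several classes they also fell with the top 6% of doublet scores removed. Neutrophils of libraries 1 and 2 were then at 8.19 and 8.28 CPM, from a mean of 17.2, and macrophages at 14.8 and 15.0, from a mean of 38.8. In libraries 3 and 4 macrophages were at 8.95 and 5.75, from a mean of 20.6, and progenitors at 6.36 and 3.97, from a mean of 11.9. Neutrophils of these libraries changed less, at 8.88 and 6.84 from a mean of 8.73. Per 1000 globin UMIs, alas2 was at 13.8, 13.6, 11.1 and 11.1 in proliferating erythroid cells and at 15.4, 15.5, 13.7 and 12.9 in non-proliferating erythroid cells of libraries 1 to 4. In neutrophils, whose median cell had a globin share of 0.0425%, the ratio was 12.6, 13.5, 12.3 and 13, which overlapped both erythroid classes. It was 10.5 to 14.9 in cluster 11 and 9.73 to 15.2 in the distal tubule. The ratio of erythroid cells, applied to the globin UMIs of neutrophils, would give 89.7% to 118% of their alas2 level, and in progenitors 105% to 161%. In the proximal tubule, with few alas2 UMIs, it would give 72.7% to 202%. In neutrophils, cluster 11 and the distal tubule, alas2 thus kept about the ratio to globin of erythroid cells. Cells that express both genes show this ratio too, and the source of these alas2 UMIs was not tested. For the other enzymes the same reckoning gave uneven shares. It would give 0.0408% to 0.25% of the measured level for alas1 in neutrophils and 3.47% to 10.5% for fech in neutrophils. For fech in the distal tubule it would give 22.3% to 128%, and the source of the fech UMIs there was not tested.

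**Figure D2:**
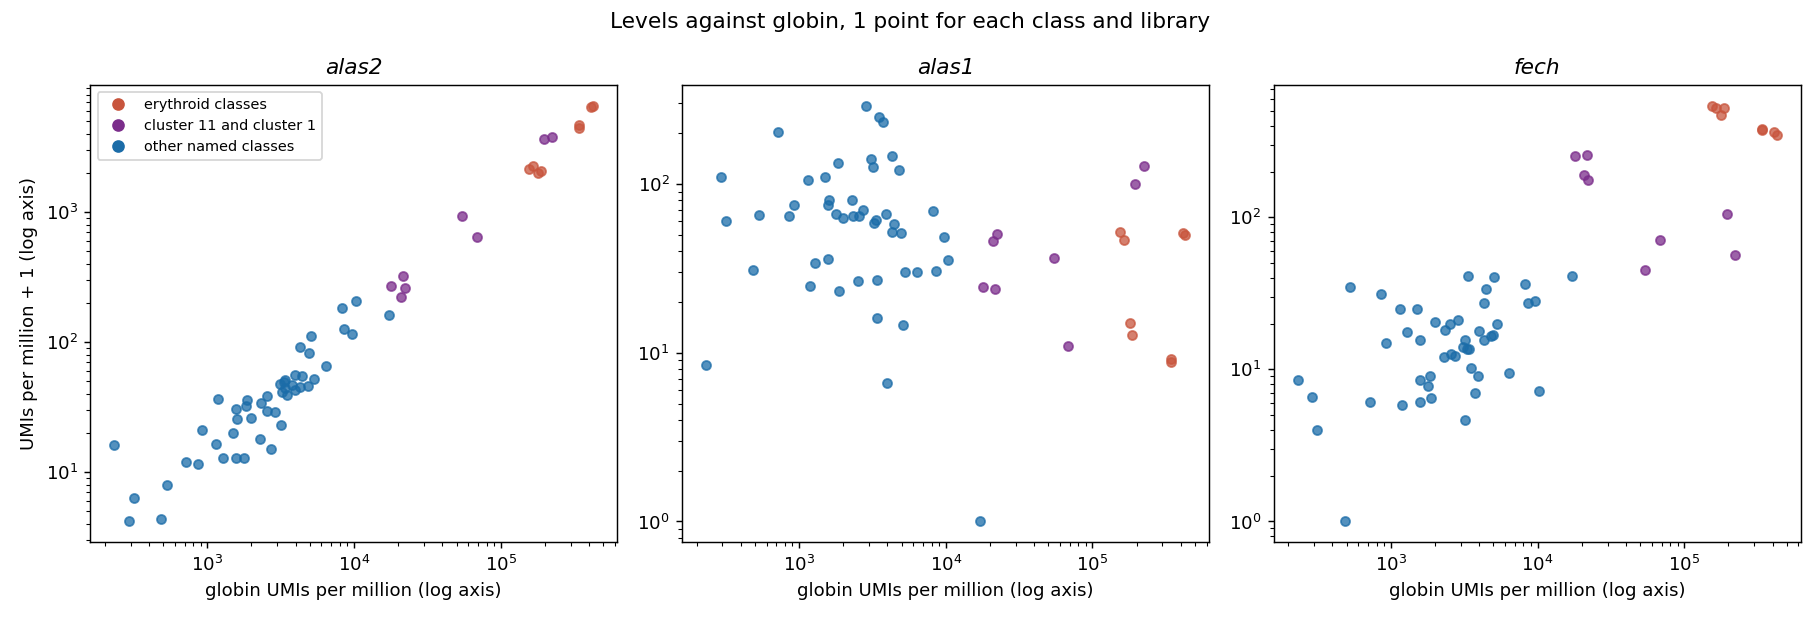
Level of alas2, alas1 and fech, as CPM + 1, against globin CPM, both on log axes; each point is 1 class in 1 library. The alas2 points rise along with globin over all classes (erythroid classes at 1991 to 6566 alas2 CPM), the alas1 points do not, and the fech points stand high in the erythroid classes and in cluster 11.

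The question of which enzymes set erythroid cells apart was addressed by comparing the summed UMIs of both erythroid classes with those of all other cells in the same libraries. All enzyme genes but alas1 were higher in erythroid cells. Alad, which joins 2 aminolevulinate molecules into porphobilinogen, was at 133, 151, 134 and 146 CPM in erythroid cells of libraries 1 to 4 and at 15.2 to 19.6 in all other cells. Fech, the ferrochelatase that inserts iron, was at 456, 447, 448 and 493 against 36.6 ± 5.51. In each library the erythroid sum of every gene but alas1 was above that of the other cells.

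By edgeR's quasi-likelihood test, 7 of the 8 enzymes were called higher and 0 lower, where 19% of the 19683 genes tested were called higher and 32.1% lower. The median log2 fold change of the 8 was 4.30, beside -0.26 over all genes tested. Alas2 changed most, by 5.95 ± 0.568 (SE; adjusted p = 4.06e-05). Of the cytosolic enzymes, uros, which closes the ring, stood at 4.44, urod, which trims the side chains, at 4.10 and alad at 3.83 ± 0.123. Of the mitochondrial steps, fech stood at 4.45 ± 0.14, ppox, the protoporphyrinogen oxidase, at 4.31 and cpox, the coproporphyrinogen oxidase, at 4.29 ± 0.249. Alas1 was at 30.3 ± 21.5 CPM in erythroid and 81.2 ± 20.2 in other cells, lower in 4 of 4 libraries. Its log2 fold change of -0.65 ± 0.532 missed the threshold (adjusted p = 0.351) and passed it with the library as a block, at -0.92 (adjusted p = 0.00905). It was -0.21 within libraries 1 and 2, where it was not called, and -1.53 within libraries 3 and 4 (adjusted p = 1.87e-07). The other cells included clusters 1 and 11. Without these, an alternative chosen after seeing the data, 7 enzymes were again called higher and alas2 stood at 7.86 and alas1 at -0.72.

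**Figure D3:**
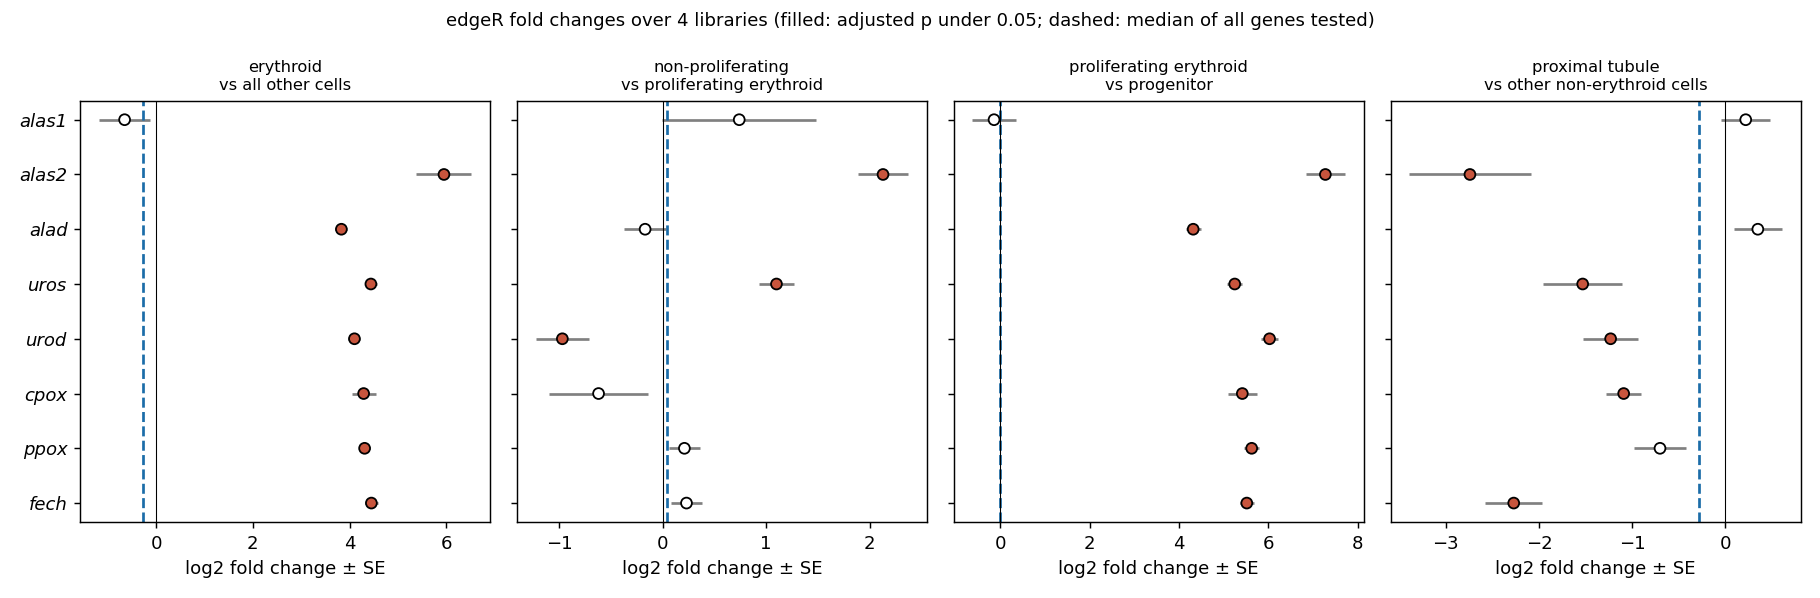
Log2 fold change ± SE of each enzyme gene by edgeR in the 4 comparisons over 4 libraries, with filled points at an adjusted p under 0.05, a dashed line at the median of all genes tested and a solid line at 0. In erythroid against other cells and in proliferating erythroid cells against progenitors, 7 of the 8 points lie far to the right (3.83 to 5.95 and 4.32 to 7.28), and in the other comparisons they spread to both sides or to the left.

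Against progenitors, the proliferating erythroid cells had higher levels of the same 7 enzymes. Urod was at 554, 597, 473 and 518 CPM in proliferating erythroid cells and at 14.5, 13.4, 10.3 and 11.2 in progenitors of libraries 1 to 4. Ppox was at 146, 159, 148 and 147 against 3.55, 5.34, 5.17 and 4.1. For each of these genes the classes were far apart in every library. By edgeR, 7 were called higher and 0 lower, where 21.8% and 24.1% of 11974 genes were, and the median log2 fold change of the enzymes was 5.47, beside a median of all genes within 0.01 of 0. The fold changes ran from 4.32 for alad through 5.25 for uros, 5.42 for cpox, 5.52 ± 0.156 for fech (adjusted p = 1.32e-07), 5.63 for ppox and 6.03 for urod to 7.28 ± 0.441 for alas2 (adjusted p = 3.78e-06). Progenitor alas2 was at 14.2, 12.6, 7.56 and 9.24 per 1000 globin UMIs in libraries 1 to 4. Both erythroid classes together were at 14.9, 14.9, 12.1 and 11.7. Alas1 was at -0.14 ± 0.483 (adjusted p = 0.838), with 0.13 within libraries 1 and 2 and -0.61 within libraries 3 and 4 (adjusted p = 0.00393).

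**Figure D4:**
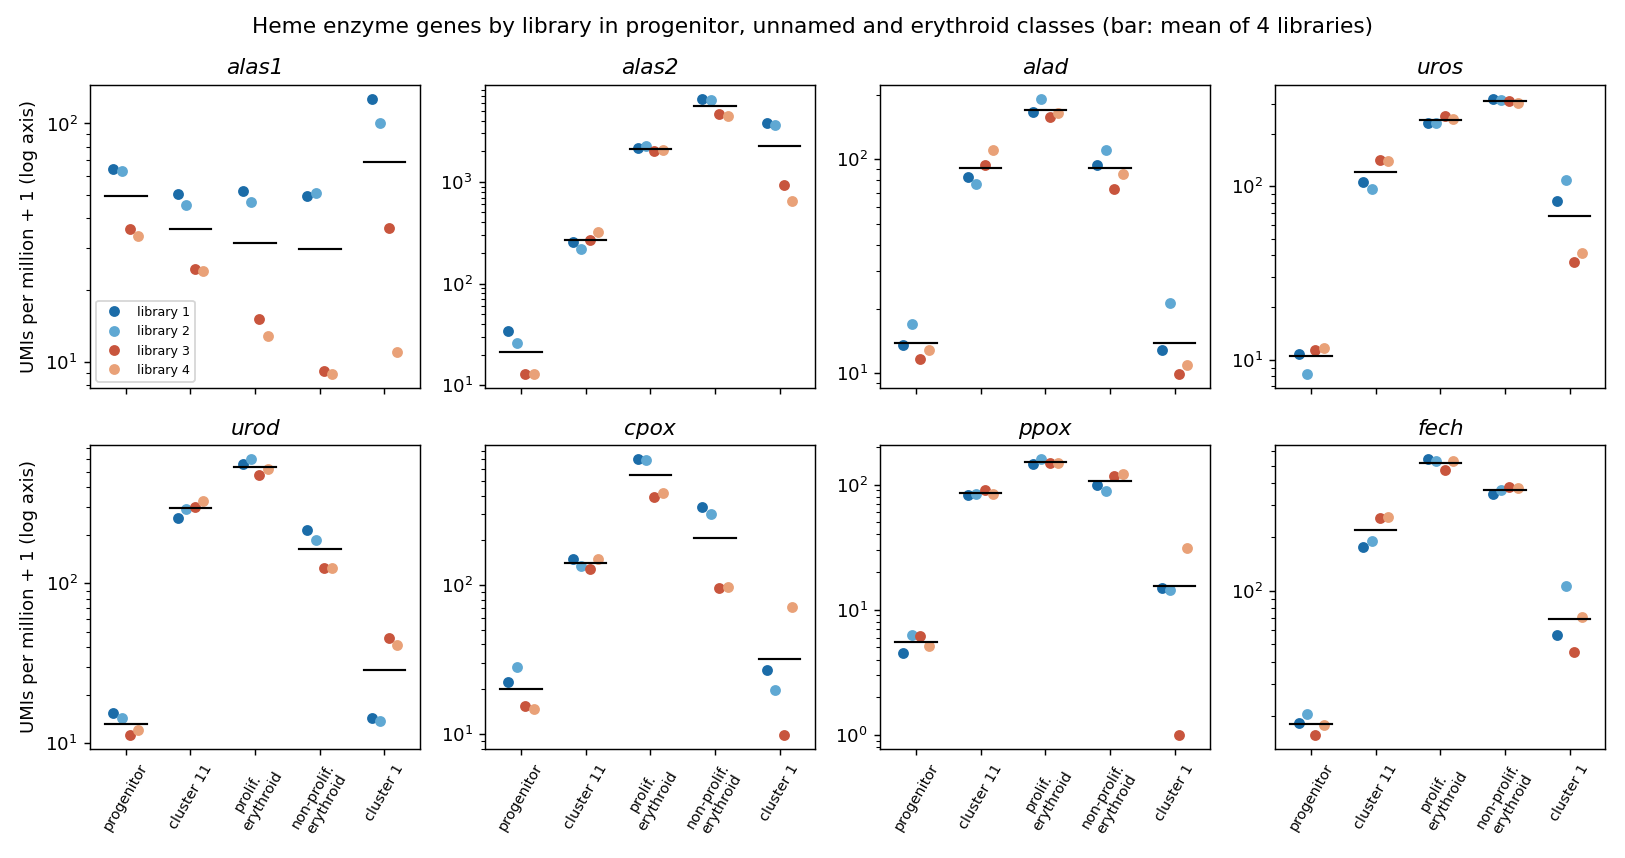
Level of each enzyme gene, as CPM + 1 on a log axis, in progenitors, cluster 11, proliferating and non-proliferating erythroid cells and cluster 1; points are libraries 1 to 4 and bars are means. Most enzymes peak in proliferating erythroid cells, alas2 and uros are higher in non-proliferating erythroid cells, and alas1 separates libraries 1 and 2 from libraries 3 and 4 in each of these classes.

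Cluster 11 held intermediate levels of most enzymes. It was singled out after its values were seen, and what follows is a description with no test. Its alas1 level was 49.4, 44.7, 23.6 and 23.0 CPM in libraries 1 to 4, its alas2 level 257, 219, 267 and 323, its urod level 257, 291, 301 and 326 and its fech level 175, 188, 254 and 256. All of the enzymes but alas1 were above progenitors and below proliferating erythroid cells in every library. The cells of this cluster ranged widely in globin, and were split at a globin share of 1% of a cell's UMIs. In the 648 cells under 1%, alas2 was at 30.3, 35.7, 30.7 and 40.4 CPM, which overlapped progenitors (11.8 to 33.1) across libraries. Within libraries it was below progenitors in library 1 and above them in libraries 2, 3 and 4. With the top 6% of doublet scores removed, progenitors were at 3.97 to 19.2, and the split of cluster 11 was not repeated in that setting. In the same cells urod was at 188, 201, 203 and 202 and fech at 137, 147, 198 and 190, with no overlap with progenitors (10.3 to 14.5 and 14.6 to 19.5).

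Each enzyme of these low-globin cells was also set against its own level in proliferating erythroid cells. Alas2 was at 1.63% ± 0.229 of its proliferating level, beside 0.959% ± 0.466 in progenitors, and cpox at 8.78% ± 1.64. Ppox was at 32.4% ± 4.08 and fech at 32.8% ± 7.66. Urod was at 37.4% ± 4.42, alad at 39.4% ± 8.35 and uros at 39.9% ± 6.15. Alas2 and cpox lay below the others in every library, while the ranges of ppox, fech, urod, alad and uros overlapped each other. In the 417 cells of the cluster with 1% globin and over, alas2 was at 626, 516, 617 and 620 CPM, 28.3% ± 3.67 of its proliferating level, and was the lowest of the 7 enzymes other than alas1 on that scale. The others were between 52.6% ± 14.1 (cpox) and 90.7% ± 10.5 (ppox). Since the cells were split by globin and alas2 moved with globin in all classes, the alas2 difference between these sets follows the split. The low place of alas2 among the enzymes of the low-globin cells cannot be told apart from that choice of cells. Over the whole cluster, without the split, alas2 was at 12.7% ± 2.48 of its proliferating level and cpox at 27.2% ± 8.05. The others but alas1 were between 42.6% ± 10.2 (fech) and 56.6% ± 3.57 (ppox).

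**Figure D5:**
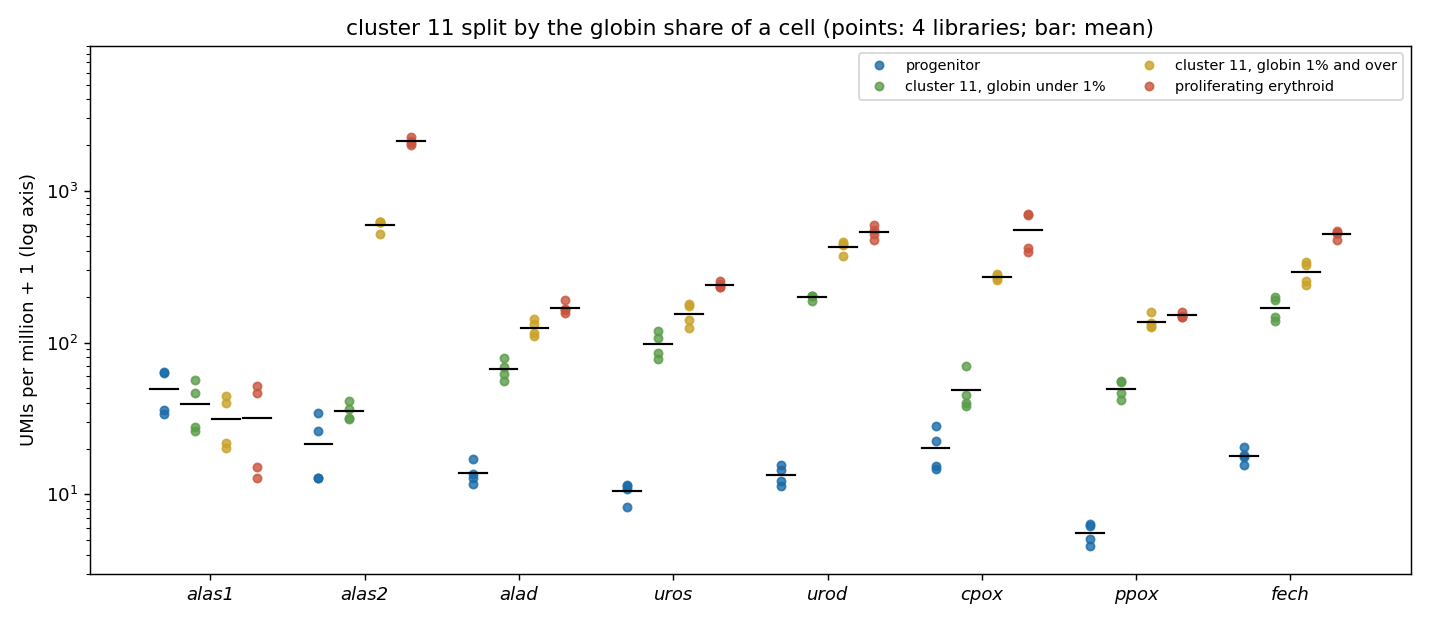
Level of each enzyme gene, as CPM + 1 on a log axis, in progenitors, in cluster 11 cells with under 1% and with 1% and over of globin UMIs, and in proliferating erythroid cells; points are the 4 libraries and bars are means. In the low-globin cells of cluster 11 alas2 is at 34.3 ± 4.75, against 20.5 ± 10.5 in progenitors, and urod at 199 ± 6.95 against 12.3 ± 1.91. These cells were chosen by low globin, with which alas2 moved.

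Between the erythroid classes the enzymes did not move together. Alas2 and uros were higher, and urod lower, in non-proliferating than in proliferating erythroid cells. Uros was at 320, 316, 310 and 302 CPM in non-proliferating cells and at 232, 231, 253 and 243 in proliferating cells of libraries 1 to 4, with no overlap. Urod was at 214, 187, 124 and 123 CPM against 554, 597, 473 and 518, lower in every library and most in libraries 3 and 4. Fech, at 346, 365, 380 and 374 against 542, 527, 471 and 527, was also lower by CPM in every library, but globin made a median of 39.1% of a non-proliferating cell's UMIs and 22.6% of a proliferating cell's. Per 1000000 UMIs other than globin, fech was at 592 against 624, ppox at 170 against 181, uros at 506 against 290, alas2 at 9019 ± 2482 against 2548 ± 113 and urod at 267 against 646.

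The edgeR test, which scales each sum by the trimmed mean of M values (TMM) and so relative to most genes, called 2 enzymes higher and 1 lower, where 19.5% and 25.1% of 8615 genes were, with a median log2 fold change of 0.22 beside 0.04 over all genes tested. Without TMM the median of all genes fell by 0.72, and the share of higher among all calls was 13.4% instead of 43.7%. The changes were 2.13 ± 0.244 for alas2 (adjusted p = 0.000152), 1.1 ± 0.166 for uros (adjusted p = 0.000698) and -0.97 ± 0.258 for urod (adjusted p = 0.0136), and these 3 directions held with and without TMM. The values of alad (-0.17), cpox (-0.62), ppox (0.21), fech (0.23) and alas1 (0.74) missed the threshold, and without TMM ppox and fech stood at -0.50 each and were called lower (adjusted p = 0.0204 and 0.0145), as were alad and cpox, while alas1 stood at -0.08. With the library as a block, cpox at -0.87 (adjusted p = 0.00913) was called lower as well. Without library 2, the adjusted p of urod was 0.0538, and 0 enzymes were called lower. With genes scaled over all libraries together for the clustering, urod (adjusted p = 0.0773) missed the threshold and ppox at 0.52 and fech at 0.69 were called higher. Assigned from globin and slc4a1a UMIs of single cells in place of clusters, uros was at 0.34 (adjusted p = 0.129), and alas2 was at 1.01 (adjusted p = 0.00314).

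The sizes differed between the library pairs. Within libraries 1 and 2 alone the log2 fold change was 2.45 for alas2, 1.34 for uros, -0.63 for urod and -0.25 for cpox, all called, and within libraries 3 and 4 alone 1.64, 0.78, -1.53 and -1.61, also called. The difference between pairs was not tested. In the non-proliferating class, where the pairs also differ in cluster, the level in libraries 3 and 4 over that in libraries 1 and 2 was -2.48 on the log2 scale for alas1, -1.72 for cpox, -0.69 for urod and 0.09 for fech. In proliferating erythroid cells, which are cluster 10 in all libraries, it was -1.82 for alas1, -0.78 for cpox, -0.22 for urod and -0.10 for fech. In neutrophils it was -0.73 for alas1 and in the distal tubule -0.31. Over the other classes this alas1 value ran from -3.64 in interstitial cells to 0.08 in the proximal tubule, where the pairs overlapped. Cluster 1 was at -2.25 and nephron progenitors at -1.87. These low values rested on few alas1 UMIs in libraries 3 and 4: 2 and 0 in interstitial cells, 4 and 1 in cluster 1, 9 and 2 in nephron progenitors. The non-proliferating class held 24 and 18. Thrombocytes (-1.54), mucin-secreting cells (-1.08), cluster 11 (-0.98), macrophages and B cells (-0.95 each) and progenitors (-0.87) fell less than either erythroid class. Libraries 3 and 4 had more UMIs per cell and alone listed 13 mitochondrial protein genes, with 5.15% and 5.03% of UMIs; the part of these in the differences was not tested.

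The enzymes were also read over the globin share of single erythroid cells. These bins largely re-sort the cells of both erythroid classes, so they are not separate evidence for the differences above. The cells fell into 756 with under 25% globin UMIs, 1628 with 25% to 50%, and 170 with 50% to 75%, all of the last from libraries 1 and 2. Of these bins 85.4%, 27.7% and 0% of cells were in the proliferating cluster. Cells with more globin were not found. Per 1000000 UMIs other than globin, alas2 was at 2090 ± 323, 7789 ± 2496 and 11268 ± 98.1 (n = 2) in these bins. Uros was at 259 ± 9.35, 480 ± 44.7 and 611 ± 71.8. The last bin holds libraries 1 and 2 only, so its means are not over the same libraries. Within libraries 1 and 2, alas2 was at 11337 and 11198 there, against 9929 and 9966 in the middle bin. For uros these values were 560 and 662 against 529 and 506. On this scale alas2 and uros were highest in the bin with most globin, which also holds the shallowest cells, with a median of 4592.5 UMIs against 18933 in the bin with least. Fech was at 557 ± 47.8, 725 ± 20.9 and 317 ± 28.5 and ppox at 169 ± 9.73, 198 ± 13.6 and 47.7 ± 11.3, highest in the middle bin. Urod, at 635 ± 56.3, 440 ± 62.7 and 70.6 ± 12.4, was highest in the bin with least globin, as were cpox and alad. Cpox was at 662 ± 191 in that bin and at 495 ± 228 in the middle bin. Between these bins cpox and alad each differed by less than their SD. Alas2 counts can rise with globin by the split itself, since both are erythroid transcripts of the same cells. By CPM, only alas2 and uros were higher at 25% to 50% than at under 25%. In the bin with most globin, alas2 was then at 5330 and 5284 CPM in libraries 1 and 2, below their 6125 and 6073 at 25% to 50%, and uros at 288 ± 34.5 (n = 2) against 308 ± 13.3.

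The enzymes were also read as shares of cells with at least 1 UMI. In proliferating erythroid cells, with a median of 17218 UMIs, alas2 was found in 96.3% of cells, fech in 96.1%, urod in 95.4%, cpox in 91.3%, uros in 90.3%, alad in 82.8% and ppox in 76.6%. In non-proliferating erythroid cells, with a median of 5393 UMIs, alas2 was found in 99.9% of cells, alas1 in 12.8% and the others in 32% (ppox) to 71.7% (uros). In neutrophils alas2 was found in 5.38% of cells (exact 95% interval 4.91% to 5.88%, counting error only) at a median of 6641 UMIs. With every cell thinned to 2000 UMIs, alas2 was found in 89.3% of proliferating and 99.8% of non-proliferating erythroid cells and in 2.23% of neutrophils, fech in 62.6%, 40.7% and 4.78%, and uros in 37.1% of proliferating and 42.2% of non-proliferating erythroid cells. At this depth the proliferating class had the larger share for 6 of the 8 genes, against 7 without thinning. A thinned proliferating erythroid cell held UMIs of 3.62 of the 8 enzymes on average (3.93, 4.07, 3.35 and 3.56 in libraries 1 to 4), a non-proliferating one of 2.59, a cluster 11 cell of 1.68, a neutrophil of 0.296 and a progenitor of 0.261. At least 5 enzymes were found in 27.9% of the proliferating, 9.54% of the non-proliferating and 3.94% of the cluster 11 cells. Thinning left out 12 proliferating and 63 non-proliferating erythroid cells, 24 cells of cluster 11, 14 progenitors and 368 neutrophils. The thinned depth counts globin UMIs, a median of 39.1% in non-proliferating and 22.6% in proliferating erythroid cells. Fewer UMIs of other genes were thus left in the erythroid classes, and fewest in the non-proliferating one.

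The shallow cluster 1 carried both synthase genes with less of the other enzymes. Its alas2 level was 3776, 3644, 924 and 641 CPM in libraries 1 to 4, high in the libraries that hold nearly all its cells. Its fech level was 55.4, 105, 44.4 and 70.1. On the scale of the proliferating erythroid level, alas2 was at 104% ± 75.9, uros at 28% ± 15.5 and fech at 13.2% ± 4.73. The other enzymes but alas1 were at 5.42% to 9.65%, and alas1 at 200% ± 78.2. These means weight each library alike, and alas1 rested on 4 and 1 UMIs in libraries 3 and 4. In libraries 1 and 2, alad was at 7.23% and 10.6%, urod at 2.41% and 2.14%, cpox at 3.70% and 2.73% and ppox at 9.61% and 8.50%. Per 1000 globin UMIs its alas2 was at 16.9, 18.6, 17.0 and 9.37.

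Alas1 was the enzyme gene whose highest level lay outside the erythroid clusters. Its highest level over all 28 clusters was in cluster 12, distal tubule cells, at 254 ± 47.8 CPM, above the next cluster in every library. The following clusters, another of the distal tubule (143 ± 40.6), neutrophils of cluster 2 (127 ± 64.3) and natural killer cells (115 ± 32.8), overlapped each other. In the distal tubule class alas1 was at 248, 290, 232 and 202, in macrophages at 133, 139, 74.1 and 65.6 and in neutrophils at 109, 104, 63.8 and 64.2. The 7 other genes had their highest cluster mean in an erythroid cluster, cluster 18 for alas2 and uros and cluster 10 for the others. Cluster 18 is held by libraries 3 and 4 alone, and the cluster 13 mean includes few cells of those libraries: in libraries 1 and 2, which hold most of cluster 13, its alas2 was at 6566 and 6393, above cluster 18 at 4849 and 4696, so the order of these clusters moves with the libraries they come from. For alas2 the order was cluster 18 (4772 ± 108, n = 2), cluster 13 (4488 ± 2308), cluster 1 (2246 ± 1695) and cluster 10 (2112 ± 111). These neighbours did not all separate. Then came cluster 25, named neutrophils, with a median globin share of 1.56%, at 355 ± 215, and cluster 11 at 266 ± 43.1. The 135 cells of cluster 25 held 308 of the 840 alas2 UMIs of neutrophils. With the top doublet scores removed, cluster 25 was at 139 and 143 CPM in libraries 3 and 4, from a mean of 170. In libraries 1 and 2, where its mean had been 540, too few of its cells were left for a level. The source of its alas2 UMIs was not tested.

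The nephron was compared because gentamicin injures the proximal tubule. In proximal tubule cells alas1 was at 79.6, 79.8, 59.6 and 109 CPM, the last of these at 39.0 with the top 6% of doublet scores removed, and alad at 11, 18.0, 23.4 and 22.9 in libraries 1 to 4. Fech was at 7.55, 11, 3.02 and 5.54. The class was 395 cells, 67 to 147 in a library, led by the tubule genes slc22a2 and ucp1 and also by apoa1b, apoa2 and vtg1, genes known from liver, and the lower of these levels rest on few UMIs. Against all other non-erythroid cells, edgeR called 5 enzymes lower and 0 higher, where 24.2% and 19.2% of 19694 genes were, with a median log2 fold change of -1.16 beside -0.28 over all genes tested. These were alas2 at -2.74, fech at -2.27 ± 0.304 (adjusted p = 0.000321), uros at -1.53, urod at -1.23 and cpox at -1.09. Leaving out 1 library gave 4 to 6 enzymes lower: uros was lost without library 1 or 3, and ppox was called without library 2. With genes scaled over all libraries for the clustering, 2 were lower, and alas2, uros and urod were lost. The other cells again held clusters 1 and 11, which carry erythroid enzyme UMIs, and the result rests on them. With those clusters left out, an alternative chosen after seeing the data, fech at -1.23 (adjusted p = 0.0128) and cpox at -0.65 (adjusted p = 0.0339) were lower, alad at 1.17 (adjusted p = 0.00653) was higher, urod was at 0.14 and alas2 at -0.83, neither called, and alas1 was at 0.15 (adjusted p = 0.69), beside 0.22 ± 0.264 with the clusters in. Fech and cpox were lower in both versions. Low levels of both were not particular to the proximal tubule. As means of libraries 1 and 2 and of libraries 3 and 4, its cpox was at 13.7 and 17.0 CPM and its fech at 9.26 and 4.28. The distal tubule was at 21.2 and 9.63 for cpox and at 14.7 and 5.57 for fech. Neutrophils were at 9.93 and 11.9 for cpox, with fech higher at 23.9 and 32.2. The reckoning from globin would give 11.8% to 35.0% of the fech level in the proximal tubule.

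The genes most like each enzyme were taken by Pearson's r of log2 levels over the 28 clusters, all libraries pooled, among 18091 genes. These r values are descriptions, since clusters share libraries and depth and differ in cell number. Alas2 was closest to the globin genes ba1 and hbaa1 (r = 0.994) and ba1l (r = 0.991), which also named its clusters. Uros was closest to nmt1b (0.979), tmod4 (0.973) and slc25a37 (0.969), the mitochondrial iron importer mitoferrin 1, and fech to uros (0.953), tfr2 (0.941) and pfkma (0.941). Ppox was closest to lnx2a (0.964), vcla (0.960) and map7d2b (0.960), alad to prdx2 and ppox (0.954), urod to alad (0.933) and cpox to urod (0.896). Alas1 stood apart, with itgb1b.1 (0.753), glod5 (0.738) and c1galt1c1 (0.732) first and r of -0.558 to -0.354 with the other enzymes.

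The partners of the pathway were read from lists of transporters, iron genes and regulators. Beside the lists' counts in erythroid against other cells stand the 19% of all genes called higher and 32.1% called lower. Of 14 genes for mitochondrial transport tested, 9 were called higher and 1 lower by edgeR (median log2 fold change 2.65), with mitoferrin slc25a37 at 5.35, the porphyrin-binding tspo at 4.49 and tmem14ca, needed for porphyrin import in mouse, at 3.70. Of 13 genes of iron uptake and storage, 8 were higher and 4 lower (1.92), with the transferrin receptor tfr1a at 4.98 and the iron exporter slc40a1 at -4.81. Of 10 heme and erythroid regulators, 9 were higher and 0 lower (3.30), among them klf1 at 5.18, gata1a at 4.32 and eif2ak1, the heme-regulated translation kinase, at 4.07. Of 10 iron-sulfur cluster genes 4 were higher and 0 lower (0.60), with glrx5 at 3.34. Of 8 regulators and cofactor suppliers of Alas, 3 were higher and 3 lower (0.35). Of 14 genes of heme export, breakdown and use, 6 were higher and 5 lower (-0.27), with the biliverdin reductase blvrb at 4.72 and the heme oxygenase hmox1a at -4.90. The median of all 19683 genes was -0.26.

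Against progenitors, where 21.8% of all genes were called higher and 24.1% lower, the proliferating erythroid cells showed 9 of 14 transport genes called higher and 1 lower (median 2.23), with tspo at 5.57 and abcb10 at 5.30, 7 of 10 iron genes higher and 1 lower (2.96), with tfr1a at 8.23, from 13.6 ± 4.22 to 2710 ± 238 CPM, and the ferritin gene fth1a at 4.85. Regulators had 7 of 9 higher and 0 lower (3.89), with klf1 at 8.49 and gata1a at 7.68. Export, breakdown and use had 4 of 13 higher and 4 lower (0.14), with the heme exporter flvcr1 at -2.69. In non-proliferating against proliferating erythroid cells, where these shares were 19.5% and 25.1%, 5 of 9 iron genes were higher and 1 lower (0.90), among them ncoa4, the ferritin receptor of autophagy, at 2.64 and tfr1a at 0.92, and 4 of 13 transport genes were higher and 2 lower (0.48), with slc25a37 at 1.40. Of the 8 regulators and suppliers of Alas, 0 were higher and 3 lower (-0.25): shmt1, which makes glycine, at -4.25 and the succinyl-CoA ligase subunits suclg2 at -1.91 and suclg1 at -0.76. Eif2ak1 was at 1.83 and znfl2a at -2.26 among 10 regulators, of which 5 were higher and 1 lower. The lists were read with TMM only. Without TMM the median of all genes between the erythroid classes fell by 0.72, so the smaller changes and the list counts there depend on the scaling. By CPM, tfr1a was at 3080 ± 334 in non-proliferating against 2710 ± 238 in proliferating erythroid cells.

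In the proximal tubule against other non-erythroid cells, where 19.2% of all genes were called higher and 24.2% lower, 6 of the 8 regulators and suppliers of Alas were called higher and 0 lower (median 1.73), with suclg2 at 2.87, shmt1 at 2.83, shmt2 at 2.50 and suclg1 at 2.30. The glycine importer slc25a38b was at 2.07, from 12.1 ± 5.01 to 44.8 ± 21.2 CPM, and 6 of 15 transport genes were called higher and 4 lower (0.61). Of 13 iron genes 3 were higher and 1 lower (0.30), with the metalloreductase steap4 at 5.46 and aco1, the cytosolic aconitase, at 3.05. Of 15 genes of export, breakdown and use 5 were higher and 2 lower (0.05), with hmox1a at -2.27. Heme and erythroid regulators had 2 of 10 higher and 6 lower (-3.08), and this contrast also held clusters 1 and 11 on its other side.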

How the data were processed

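Single-cell RNA was measured in 4 libraries of kidney, 1 group in all. The deposited values are UMI counts per gene and cell, which the authors made with UMI-tools after a read check with fastp; the submitters' processing notes also name GRCz11 and Seurat 4.2, and the aligner is not given in those sources. A gene not listed in a library was taken as 0.

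From these counts, cells were clustered with Seurat 5.3.0 (R 4.3.3) on 2000 variable genes scaled within each library, without the enzyme and pathway genes, with 30 principal components and a resolution of 0.6, giving 28 clusters. A cluster was named from its markers (mean log2 ratio of at least 0.75 with a pseudocount of 10, a bound chosen after the scores were seen, and at least 3 markers detected). Otherwise it kept its number, as it did where another marker list had more genes among its top 10, or where it was shallow with no marker among them. Scrublet (scanpy 1.11.5, Python 3.11.15) called 0, 2, 4 and 0 doublets, too few to use as calls, and the 543, 590, 378 and 349 cells with the top 6% of scores were removed only as an alternative. Raw counts were summed per class and library (at least 10 cells), filtered with filterByExpr, scaled by TMM and tested with edgeR 4.0.16 (quasi-likelihood, Benjamini-Hochberg over all genes, threshold 0.05); DESeq2 1.42.0 was an alternative. The counts of all genes called include genes used in clustering and serve as background only. Sums of the same library share that library's handling, and their deviations from the class means correlated by 0.492 to 0.74, so libraries pair them and a fit with the library as a block was run. Standard errors were derived from the fold change and the F statistic. The tests were also run on simulated counts in which 200 genes of all levels were changed by known amounts. Log2 changes of 1 were called in 0% to 9% of the changed genes over the 4 comparisons, and changes of 2 in 31% to 66%. A gene that missed the threshold was therefore not shown to be unchanged.

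Shares of cells were also computed with cells thinned to 1000 and 2000 UMIs. Exact 95% intervals of shares cover counting error only. The 8 enzymes named in the report are described, and some results are not reported here. Of the pathway lists, genes were named by a rule: called, changed in the same direction in 4 of 4 libraries, and among the 4 with the largest change of a list. For likeness the 3 genes with the highest r were taken, among genes with at least 200 UMIs. Members and lists were chosen with earlier results of these data known.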

Additional observations from a re-analysis of the deposited data

Results flagged for a closer look

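Of 72 sets of 4 library values tested, 1 had a value far from the rest by Dixon's criterion, which chance gives in about 1 set in 20. The ppox level in proliferating erythroid cells was 159.0 CPM in library 2, against 146 to 148 in the other libraries, and the gap was 0.846 of the whole range. Without library 2, ppox kept its side of the threshold in both comparisons that use this class.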

How the results depend on the processing

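Of the enzyme fold changes under the alternatives, 133 kept direction and side of the threshold and 3 newly passed it for erythroid against other cells; these numbers were 99 and 14 for the erythroid classes, 110 and 1 for proliferating erythroid cells against progenitors, and 98 and 7 for the proximal tubule. Calls lost with no change of direction were 3 for the erythroid classes and 7 for the proximal tubule. Without TMM, all genes called higher and lower were 1525 and 10059 for erythroid against other cells (higher in 13.2% of calls instead of 37.2%), with 1 enzyme lower; 593 and 3822 between the erythroid classes, with 5 enzymes lower; and 1407 and 4997 against progenitors (22% instead of 47.6%). With no filter, 1027 genes were higher between the erythroid classes (27.5% of calls). With the library as a replicate block, the enzymes called lower were 1 (alas1) for erythroid cells and 2 between the erythroid classes, and no other enzyme call changed. Leaving out 1 library, 1106 to 1333 genes were higher and 0 to 1 enzymes lower between the erythroid classes. Libraries 1 and 2 alone gave 4 enzymes higher and 2 lower there. Libraries 3 and 4 alone gave 6435 genes higher and 1 enzyme lower for erythroid cells, 2833 higher and 3452 lower with 3 enzymes lower between the erythroid classes, and 4549 and 4599 with 1 enzyme lower against progenitors. With genes scaled over all libraries, 4 enzymes were higher and 0 lower between the erythroid classes and 2 lower in the proximal tubule; no progenitor cluster was named, so that comparison could not be fitted. Cells assigned by direct counts gave 686 genes higher and 1135 lower, 1 enzyme higher and 2 lower. Alternatives chosen after seeing the data were cluster 1 counted as erythroid (3 enzymes lower) and clusters 1 and 11 left out beside the proximal tubule (1 higher, 2 lower). Enzymes higher at 25% to 50% than at under 25% globin were 5 scaled to UMIs other than globin and 2 scaled to all UMIs. The causes were not tested. Directions turned between the erythroid classes for alas1 (-0.08), ppox (-0.50) and fech (-0.50) without TMM, ppox (-0.07) and fech (-0.05) with no filter, alad (0.08) in libraries 1 and 2, alas1 (-0.22) in libraries 3 and 4, alad (0.09) with genes scaled over all libraries, ppox (-0.25) and fech (-0.47) by direct counts and ppox (-0.23) and fech (-0.23) with cluster 1; against progenitors for alas1 (0.13) in libraries 1 and 2; and in the proximal tubule for alas1 with no filter (-0.02), leaving out 1 library (-0.17 to 0.38), in libraries 1 and 2 (-0.22) and without top doublet scores (-0.25), for alad in libraries 1 and 2 (-0.08) and at resolution 1.0 (-0.13), and for urod (0.14) and ppox (0.78) without clusters 1 and 11. Of these, ppox and fech without TMM passed the threshold on the other side, and urod lost its call. Precision is limited by 395 proximal tubule cells, and by cluster 18, which is held by libraries 3 and 4 alone.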

Other observations

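Some classes outside the erythroid lineage held some enzymes at raised levels; these were chosen after their values were seen and carry no test. Cpox, the coproporphyrinogen oxidase, was at 85.3, 67.6, 83.0 and 42.1 CPM in thrombocytes, at 69.0, 60.3, 50.4 and 49.2 in the unnamed cluster 3, led by jac2, jac3 and mrc1b, and at 79.8, 73.1, 64.5 and 62.2 in the unnamed cluster 15, led by kpna2, tuba1b and ccnb1, against 9.87 to 12.9 in neutrophils as a whole. All cells outside the erythroid classes together were at 37.6 ± 3.04. Uros was at 50, 38.9, 45.0 and 44.6 in thrombocytes, against 7.21 to 10.6 in progenitors, and ppox (16.0 ± 5.62 against 4.54 ± 0.858) and fech (34.7 ± 6.42 against 17.0 ± 2.01) were above progenitors there as well. Per 1000 globin UMIs, fech was at 3.09, 7.39, 11.8 and 7.81 in thrombocytes of libraries 1 to 4, beside 1.66, 1.56, 2.04 and 2.23 in erythroid cells. Urod was at 67.2 and 98.7 in cluster 27, mucin-secreting cells of libraries 1 and 2.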
